A study of Danio rerio with 12 samples.

Results

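Genes that make bile salts from cholesterol, move them across the hepatocyte and hold their synthesis in check were examined in adult zebrafish whole liver. They were taken from a named list of 31 zebrafish symbols, of which 27 were matched to 27 genes among the 32520 genes of the deposited tables. Of these, 19 matched by symbol and 8 only without a copy suffix, because the name table gives some copies one human-style symbol; such copies are given with their Ensembl identifier. The symbols cyp27a7, akr1d1, baat and slc51b had no match and were not analysed here, nor was the cyp7a1b copy that RefSeq lists.

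The 12 libraries were 6 of fish homozygous for a CRISPR knockout of glyoxalase 2 (glo2-/-) and 6 of wild type (glo2+/+). All came from the line Tg(fli1:EGFP), a reporter strain with fluorescent endothelium, and all were marked as not trained. Sex is not stated, nor whether different libraries are different fish. The p-values therefore rest on the spread between libraries, part of which may be technical. Each library held between 17433960 and 18465485 estimated counts.

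Bile salts are made in hepatocytes by hydroxylation of the cholesterol ring and side chain. CYP7A1 opens the classical route and is rate-limiting in mammals, and CYP27A1 and CYP7B1 carry the alternative one. Cyprinid fish are known for bile alcohol sulphates that keep the full cholesterol side chain, whereas mammals shorten the side chain and conjugate the acid with taurine or glycine. In mammals bile salts leave the hepatocyte through ABCB11 at the canaliculus, and they bind the receptor FXR (NR1H4), which induces SHP (NR0B2) and intestinal FGF19 to shut down synthesis.

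The genes of the pathway were present at very uneven levels. Levels in this and the next paragraphs are TPM, which is scaled to transcript length and so allows genes to be compared. slc27a2a, slc51a, CYP8B1 (ENSDARG00000053068) and HSD3B7 ranked 208, 289, 624 and 627 of 32520 genes by mean TPM. By contrast, CYP7A1, SLC10A1, klb, nr0b2b and cyp46a1.1 had too few counts to be tested between the genotypes. The remaining 22 genes were tested, and none differed between the genotypes past an adjusted p of 0.05 (edgeR, quasi-likelihood), against 1 of all 14509 tested genes (0.00689%). In bulk liver, fewer cells of a type and less RNA per cell cannot be told apart.

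**Figure D1:**
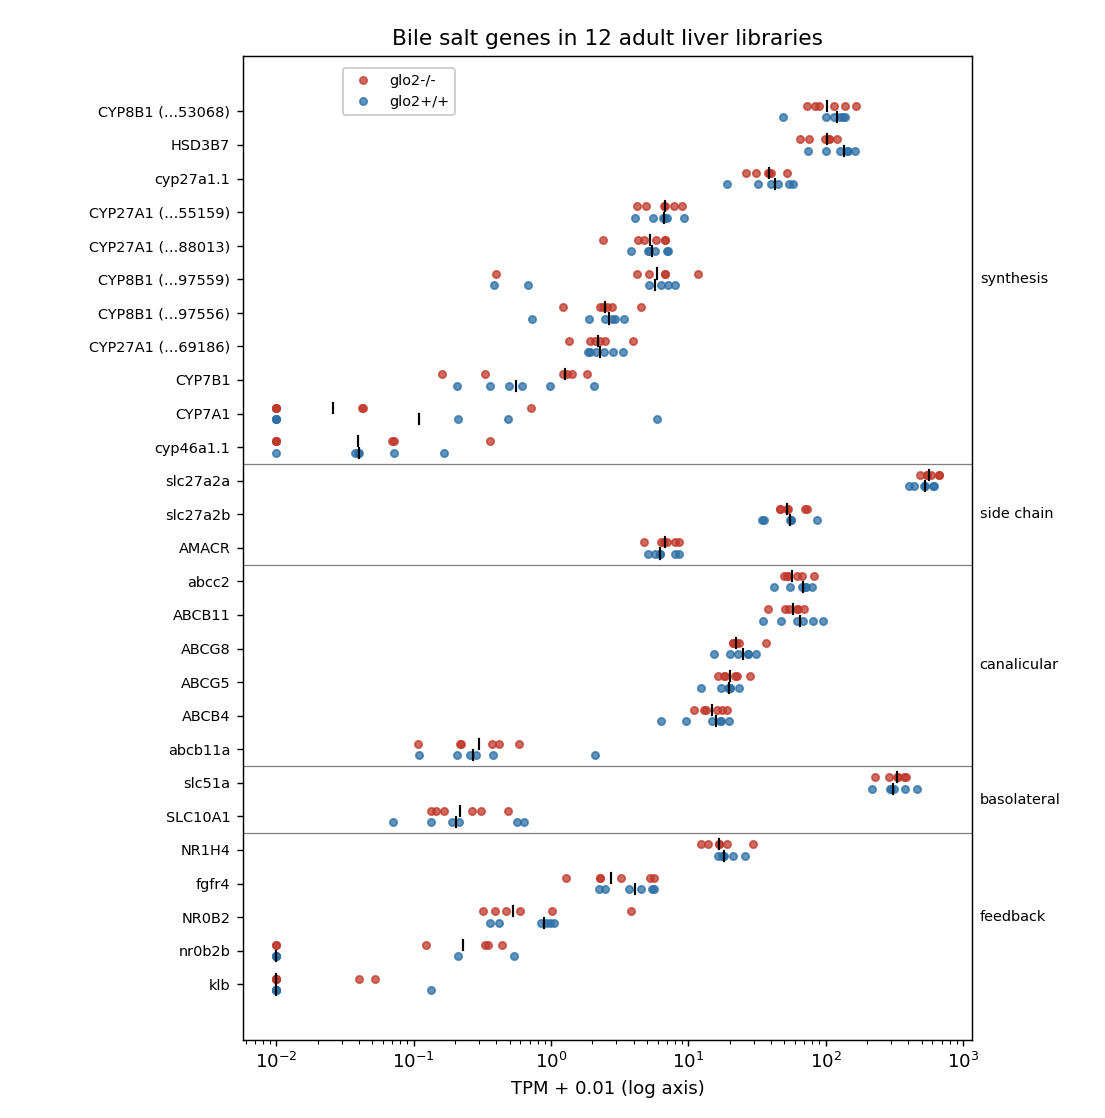
TPM of the 27 bile salt genes, with 0.01 added for a log axis, in 6 glo2-/- (red) and 6 glo2+/+ (blue) libraries, grouped by role; each point is a library and each black tick a genotype median. Genes differ by orders of magnitude in level, from klb, with at most 0.124 TPM, to slc27a2a, with at most 673 TPM, while the genotypes overlap for every gene.

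The labelled tissue was checked against marker genes. The 14 hepatocyte markers summed to between 257152 and 355384 TPM in glo2-/- and between 268857 and 355984 TPM in glo2+/+ liver, and none of them was at 0 in any library. The 15 bile duct markers summed to between 860 and 1417 TPM in glo2-/- and between 886 and 1663 TPM in glo2+/+ liver. They ranged from krt8, with a median of 400.3 TPM in glo2-/- and 396 TPM in glo2+/+ liver, to the chloride channel CFTR, at 0 in 9 libraries. The sum of the 21 exocrine pancreas markers varied widely, from 54.1 to 7756 TPM in glo2-/- and from 29.8 to 3137 TPM in glo2+/+ liver. The targeted gene itself, HAGH, averaged 81.5 CPM in glo2-/- liver (SD 4.47, n = 6) and 94.8 CPM in glo2+/+ liver (SD 5.40, n = 6). CPM are counts scaled to the library total, itself multiplied by a TMM normalization factor (0.817 to 1.15 over the 12 libraries). The CPM ranges did not overlap, at 76.1 to 88.1 in glo2-/- and 91.6 to 105 in glo2+/+ liver, which held for 0.248% of all tested genes. In TPM they did, at 44.5 to 63.4 in glo2-/- and 46.3 to 69.8 in glo2+/+ liver. The estimated counts, before any scaling, overlapped too, at 1216 to 1740 in glo2-/- and 1381 to 1870 in glo2+/+ liver. The log2 fold change was -0.22 (SE 0.09, edgeR unadjusted p = 0.0369, adjusted p = 0.819). What the allele deletes is not stated, so whether a lower level of this mRNA should follow from it is not known.

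CYP7A1, the cholesterol 7-alpha-hydroxylase, was at or near 0 in most libraries and far higher in 1. Its estimated counts were 0, 1, 0, 1, 0 and 22 in glo2-/- replicates 1 to 6. In glo2+/+ replicates 1 to 6 they were 180, 16, 0, 6, 0 and 0. Thus 3 libraries of each genotype had no count. That allows at most 0.172 CPM, here without the TMM factor, in a library of this depth (3 counts). The limit covers counting error only. The sums of 24 counts in glo2-/- and 202 counts in glo2+/+ liver differed mainly through glo2+/+ replicate 1. Without the highest library of each genotype they were 2 and 22. By permutation of the genotypes (exact, two-sided, on log2(CPM + 0.1)) p was 0.424, the lowest of the 5 genes left out of the edgeR test.

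CYP8B1, the sterol 12-alpha-hydroxylase, which in mammals sets the ratio of cholic to other bile acids, was by contrast abundant. Its main copy, CYP8B1 (ENSDARG00000053068), ranged from 73.6 to 165 TPM (median 103) in glo2-/- and from 49.2 to 138 TPM (median 122) in glo2+/+ liver. It made up between 84.9% and 98.1% of the summed TPM of the 3 copies in every library. The genotypes overlapped, with a log2 fold change of -0.06 (95% interval -0.52 to 0.40), whose sign was positive in the TPM fits (0.015 at either pseudocount). The 3 cyp8b1 genes are direct neighbours on chromosome 2 in the RefSeq gene order of the later assembly GRCz12tu. Reads that match several copies are divided by likelihood in kallisto, so shares between near-identical copies are uncertain.

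The copy CYP8B1 (ENSDARG00000097559) fell into separate levels that did not follow genotype. In 3 libraries, glo2-/- replicate 3 and glo2+/+ replicates 4 and 6, it had 11 to 21 counts and 0.373 to 0.671 TPM. The other 9 libraries had 134 to 356 counts and 4.23 to 11.9 TPM, with no value in between. Its share of CYP8B1 TPM was between 0.232% and 13.7% in glo2-/- and between 0.264% and 12.4% in glo2+/+ liver. This pattern was noticed after the values were seen. Its log2 fold change was 0.16 (95% interval -1.36 to 1.68).

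The copy with the lowest median, CYP8B1 (ENSDARG00000097556), had a median of 2.48 TPM (1.21 to 4.53) in glo2-/- and 2.62 TPM (0.721 to 3.37) in glo2+/+ liver. Its log2 CPM was correlated with that of the main copy over the 12 libraries (Pearson r = 0.75, permutation p = 0.0111, adjusted over 4 relations 0.0148). Spearman's rho was 0.31 (permutation p = 0.318, adjusted 0.424). The relation rested on glo2-/- replicate 6 and glo2+/+ replicate 3, since r was -0.25 without them. Within glo2-/- r was 0.61 (exact permutation p = 0.217) and within glo2+/+ 0.94 (exact permutation p = 0.0528). The pair was chosen after its values were seen, and the adjustment over 4 relations does not cover that choice.

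CYP27A1, the mitochondrial sterol 27-hydroxylase, was represented by 4 genes, and cyp27a1.1 led in every library with 63.5% to 79.3% of their summed TPM. It had 26.2 to 52.6 TPM (median 38.6) in glo2-/- and 19.3 to 57.4 TPM (median 42.5) in glo2+/+ liver, and its log2 fold change was -0.26 (95% interval -0.68 to 0.16). The copies CYP27A1 (ENSDARG00000055159), CYP27A1 (ENSDARG00000088013) and CYP27A1 (ENSDARG00000069186) had medians of 6.71, 5.28 and 2.18 TPM in glo2-/- liver. In glo2+/+ liver these medians were 6.63, 5.46 and 2.26 TPM. Their log2 fold changes lay between -0.27 and -0.07. CYP27A1 (ENSDARG00000088013) and CYP27A1 (ENSDARG00000069186) varied together, with r = 0.86 (permutation p = 0.00024, adjusted 0.00096) and rho = 0.90 (permutation p = 0.0002, adjusted 0.0008). Without glo2-/- replicate 1 and glo2+/+ replicate 4, r was 0.81 (permutation p = 0.00366). It was 0.88 within glo2-/- (exact permutation p = 0.0236) and 0.86 within glo2+/+ (exact permutation p = 0.0153). This pair, like the CYP8B1 pair, was chosen after its values were seen. The part of reads shared between copies was not tested.

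**Figure D2:**
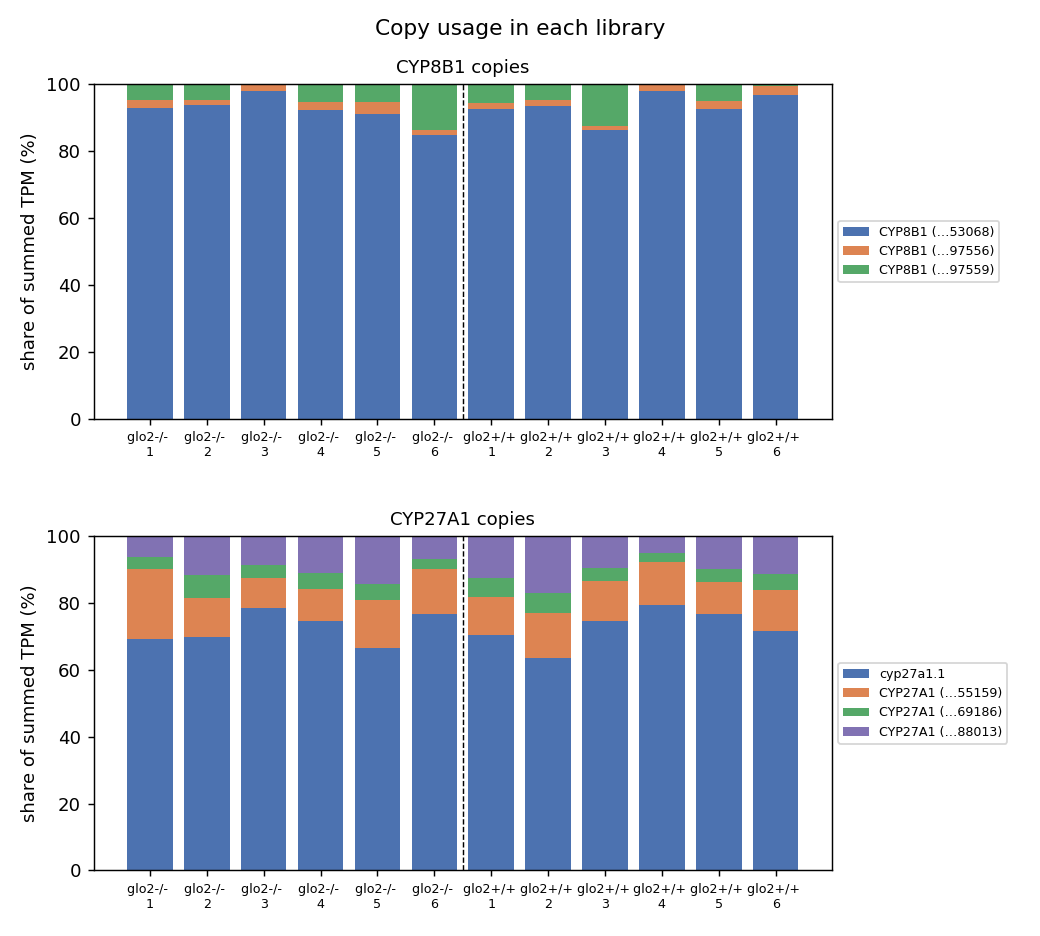
Share of each copy in the summed TPM of the CYP8B1 and CYP27A1 copies (percent, stacked bars) in each library, glo2-/- on the left and glo2+/+ on the right of the dashed line. The main CYP8B1 copy holds 84.9% to 98.1% and cyp27a1.1 holds 63.5% to 79.3%, and CYP8B1 (ENSDARG00000097559) nearly vanishes in glo2-/- replicate 3 and glo2+/+ replicates 4 and 6.

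Of the other hydroxylases, CYP7B1, the oxysterol 7-alpha-hydroxylase of the alternative route, was low. It ranged from 0.152 to 1.82 TPM (median 1.26) in glo2-/- and from 0.197 to 2.05 TPM (median 0.547) in glo2+/+ liver. Its log2 fold change of 0.26 had a 95% interval from -0.96 to 1.48 and was 0.79 without glo2+/+ replicate 1. The cholesterol 24-hydroxylase copy cyp46a1.1, a brain enzyme in mammals, summed to 9 counts in glo2-/- and 7 counts in glo2+/+ liver. Its relative cyp46a1.4, not among the 27 genes, had a median of 45.2 TPM in glo2-/- and 49.1 TPM in glo2+/+ liver.

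HSD3B7, the dehydrogenase that acts on the ring after 7-alpha-hydroxylation, had the smallest p of the 27 genes. It stood at 64.9 to 121 TPM (median 102) in glo2-/- and at 74.4 to 165 TPM (median 136) in glo2+/+ liver. Its mean CPM was 141 (SD 26.0, n = 6) in glo2-/- liver, against 202 (SD 63.2, n = 6) in glo2+/+ liver. The ranges overlapped on both scales: no glo2-/- library lay below all glo2+/+ libraries in CPM, and 1 (replicate 4) did in TPM. The log2 fold change was -0.52 (SE 0.21, 95% interval -0.98 to -0.07, edgeR unadjusted p = 0.0273). It did not pass over all genes (edgeR adjusted p = 0.819), and on log2(TPM + 1) it was -0.39 with an unadjusted p above 0.05.

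Side chain genes included the most abundant transcript of the 27. slc27a2a, a very long-chain acyl-CoA synthetase whose mammalian relative activates bile acid precursors, had 488 to 673 TPM (median 567) in glo2-/- and 406 to 611 TPM (median 527) in glo2+/+ liver. It was also among the steadiest, with a log2 fold change of 0.07 (95% interval -0.20 to 0.34). slc27a2b was far lower, with 5.33% to 14.2% of the summed TPM of both copies. AMACR, the racemase that prepares the side chain for peroxisomal oxidation, had a median of 6.81 TPM (4.73 to 8.58) in glo2-/- and 6.24 TPM (5.07 to 8.59) in glo2+/+ liver. The log2 fold changes of slc27a2b and AMACR were -0.02 (95% interval -0.63 to 0.60) and -0.03 (-0.41 to 0.36), and both were positive in the TPM fits.

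At the canaliculus, ABCB11 (ENSDARG00000070078), the bile salt export pump, carried 97.9% to 99.9% of the summed TPM of its family, and abcb11a the rest. ABCB11 ranged from 38.0 to 69.8 TPM (median 57.8) in glo2-/- and from 35 to 95.8 TPM (median 65.3) in glo2+/+ liver. The log2 fold change was -0.31 (95% interval -0.87 to 0.25). abcb11a had 8 to 47 counts in glo2-/- liver; in glo2+/+ liver it had 8 to 31 counts in 5 libraries and 160 in replicate 1. Its log2 fold change, the largest in size of the 22 tested genes at -0.85 (95% interval -2.20 to 0.51), was 0.32 without that library.

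The other canalicular transporters overlapped closely. abcc2, which exports conjugated organic anions, had a median of 57.3 TPM (49.6 to 82.0) in glo2-/- and 68.7 TPM (42.3 to 79.7) in glo2+/+ liver, with a log2 fold change of -0.17 (95% interval -0.52 to 0.19). ABCB4, which in mammals moves phosphatidylcholine into bile, had medians of 14.9 TPM in glo2-/- and 16 TPM in glo2+/+ liver and a log2 fold change of 0.04 (-0.35 to 0.42). ABCG5 and ABCG8, which pair to export sterols, had medians of 20.2 and 22.3 TPM in glo2-/- and of 19.7 and 25.2 TPM in glo2+/+ liver. Their log2 fold changes were 0.09 (-0.19 to 0.37) and -0.02 (-0.35 to 0.31), the second of them positive in the TPM fits.

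ABCG5 and ABCG8 are direct neighbours on chromosome 13 in the GRCz12tu gene order. The ratio of ABCG8 to ABCG5 TPM lay between 0.981 and 1.32 (median 1.19) in glo2-/- and between 1.17 and 1.37 (median 1.29) in glo2+/+ liver. Their log2 CPM values gave r = 0.79 (permutation p = 0.00361, adjusted 0.00722) and rho = 0.51 (permutation p = 0.0926, adjusted 0.185) over 12 libraries. Without glo2-/- replicates 2 and 5, r was 0.38 (permutation p = 0.284), so the relation rested partly on those libraries. Within glo2-/- r was 0.83 (exact permutation p = 0.0431) and within glo2+/+ 0.80 (exact permutation p = 0.0389). Spearman's rho was 0.60 within glo2-/- (exact permutation p = 0.242) and 0.71 within glo2+/+ (exact permutation p = 0.136). This pair too was chosen after its values were seen.

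At the basolateral membrane the exporter subunit and the uptake carrier stood at opposite ends. slc51a, the alpha subunit of the organic solute transporter, had 229 to 382 TPM (median 333) in glo2-/- and 219 to 466 TPM (median 308) in glo2+/+ liver. The fitted log2 fold change was -0.12 (95% interval -0.56 to 0.33). SLC10A1, the sodium-dependent uptake carrier of mammalian hepatocytes, had only 3 to 11 counts (median 5) in glo2-/- and 1 to 15 counts (median 4.5) in glo2+/+ liver. In TPM its medians were 0.207 and 0.193 in glo2-/- and glo2+/+ liver. The organic anion carrier slco1d1, named by the rule for other genes, was far more abundant, at 136 to 232 TPM (median 168) in glo2-/- and 160 to 271 TPM (median 225) in glo2+/+ liver.

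Feedback genes were low apart from the receptor itself. NR1H4 (FXR) had 12.4 to 29.4 TPM (median 16.7) in glo2-/- and 16.3 to 26.1 TPM (median 18.1) in glo2+/+ liver. The log2 fold change was -0.23 (95% interval -0.58 to 0.12), and -0.36 without glo2-/- replicate 6, its highest library. NR0B2 (SHP), the corepressor that FXR induces, had a median of 0.522 TPM (0.310 to 3.81) in glo2-/- and 0.874 TPM (0.349 to 1.04) in glo2+/+ liver. Its counts were 53, 15, 23, 19, 28 and 191 in glo2-/- replicates 1 to 6 and 45, 22, 19, 50, 41 and 50 in glo2+/+ replicates 1 to 6. glo2-/- replicate 6 thus stood above all other libraries, and the log2 fold change of 0.44 (95% interval -0.71 to 1.59) was -0.42 without it. The second SHP copy, nr0b2b, had at most 5 counts in any library.

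fgfr4, the hepatic receptor for FGF19, had a median of 2.74 TPM (1.28 to 5.61) in glo2-/- and 4.1 TPM (2.24 to 5.58) in glo2+/+ liver, with a log2 fold change of -0.40 (95% interval -1.06 to 0.26). Its coreceptor klb was at 0 in 9 libraries and had at most 4 counts elsewhere. NR0B2 and ABCB11, both FXR targets in mammals, did not show a relation over the 12 libraries (r = 0.05, permutation p = 0.886, adjusted 0.886; rho = 0.10, permutation p = 0.747, adjusted 0.747). Without glo2-/- replicates 6 and 2, r was 0.04. Within glo2-/- r was 0.42 (exact permutation p = 0.379) and within glo2+/+ -0.56 (exact permutation p = 0.258). Relations of cyp7a1 and slc10a1 with other genes had been planned but were not computed, since both had too few counts.

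The genotypes were then compared over the pathway as a whole. No gene of the 22 tested passed an adjusted p of 0.05 by edgeR, which over all genes called zgc:195170 alone. DESeq2 called none of the 23 to which it gave an adjusted p, against 0.193% of all genes. At an unadjusted p under 0.05, 0 of 22 were higher and 1 of 22 (HSD3B7, 4.55%) was lower in glo2-/- liver, against 2.47% of all genes higher, 3.41% lower and 5.88% in either direction (edgeR). With DESeq2, HSD3B7 was also the only one of 27 at an unadjusted p under 0.05, against 4.71% of all genes. Genes to which DESeq2 gave no p-value, abcb11a among them, count as not called in both. No bile salt gene was without overlap between the genotypes, against 0.248% of all genes. Of the 22, 15 had a negative log2 fold change (68.2%, against 52.4% of all genes), with a median of -0.063 beside -0.015 over all genes. A negative sign was not particular to them: 12 of the 14 hepatocyte markers were negative too, with a median of -0.16. On log2(TPM + 1) 10 of the 22 were negative and their median was 0.012, beside a median of 0.048 over all genes. On log2(TPM + 1), 474 of all genes were higher and 204 lower at an unadjusted p under 0.05, against 358 and 495 in the edgeR fit.

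**Figure D3:**
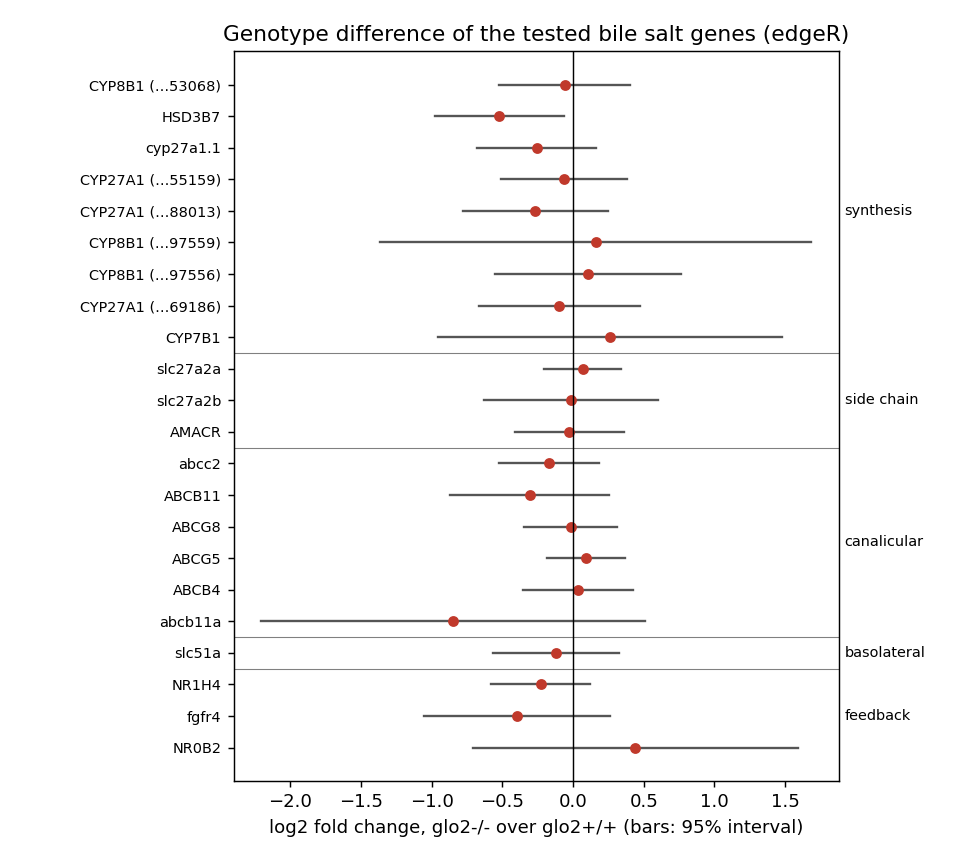
Fitted log2 fold change (glo2-/- over glo2+/+) of the 22 tested bile salt genes, with 95% intervals from the edgeR quasi-likelihood fit, grouped by role. The interval includes 0 for each gene but HSD3B7, at -0.52, which did not pass over all genes (adjusted p = 0.819).

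Intervals show what size of change the 6 and 6 libraries leave room for. For slc27a2a, ABCG5 and ABCG8 the 95% intervals ended within 0.37 of 0 on the log2 scale. For CYP8B1 (ENSDARG00000097559) they ran from -1.36 to 1.68. The median spread of log2 CPM within a genotype (SD) was 0.41 over the 22 genes and 0.38 over all genes tested. The least variable was slc27a2a, at an SD of 0.19, and the most variable was CYP8B1 (ENSDARG00000097559), at 1.80.

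Other genes of bile salt and sterol handling came from lists drawn up beside the 27 genes. None passed the threshold in either direction: 0 of 25 tested side chain and other bile genes, 0 of 18 other transporters and 0 of 27 regulators. Over all tested genes, 1 of 14509 (0.00689%) passed. The first list covers side chain oxidation, oxysterol synthesis and sulphation, and also other genes such as SRD5A2, DHCR7 and EBP. Median log2 fold changes were -0.12, -0.08 and -0.09 in these lists, beside -0.015 over all genes. The 3 genes of smallest p in each are given as values. All 9 had an edgeR adjusted p between 0.791 and 0.819.

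Among the sulphotransferases, sult2st1 had 9 to 22 counts (median 14.5) in glo2-/- liver, against 11 to 243 counts (median 15) in glo2+/+ liver. The value of 243 belonged to glo2+/+ replicate 1, the library with the most CYP7A1 and abcb11a, and the next highest was 56 in glo2+/+ replicate 2. Its log2 fold change of -2.10 (SE 0.77) was -0.70 without replicate 1. sult2st2, far more abundant, had a median of 82.4 TPM in glo2-/- and 102 TPM in glo2+/+ liver. The log2 fold change of sult2st2 was -0.30 (SE 0.13), and 5 of 6 glo2-/- libraries lay below all glo2+/+ libraries in CPM. In TPM fewer did, at 69.5 to 123 in glo2-/- and 83.6 to 117 in glo2+/+ liver. DHCR7, the last enzyme of cholesterol synthesis, was at 40.2 TPM (8.24 to 155) in glo2-/- and 15.6 TPM (5.28 to 45.0) in glo2+/+ liver, with a log2 fold change of 1.3 (SE 0.58; 0.66 without glo2-/- replicate 5). The 23 tested cholesterol synthesis genes, DHCR7 among them, all had positive log2 fold changes, with a median of 1.19. Of these 23, 0 passed, and 52.4% of all genes were negative. At an unadjusted p under 0.05, 9 of the 23 were higher in glo2-/- liver, against 2.47% of all genes (edgeR). Genes of 1 pathway measured in the same libraries are not independent of each other. The summed TPM of the list overlapped, at 469 to 7136 in glo2-/- and 463 to 2614 in glo2+/+ liver, and was highest in glo2-/- replicate 5. The list also holds the uptake receptor ldlra and the regulators srebf2 and insig1, and was chosen with earlier results of these data known. A uniform sign was also seen in another list: 19 of 19 tested exocrine pancreas markers had a positive log2 fold change (median 1.16). Of those 19 markers, 0 had an unadjusted p under 0.05 (edgeR).

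Of the transporters, ABCA1, which loads cholesterol onto apolipoprotein A-I, had 4.30 to 11.4 TPM (median 5.84) in glo2-/- and 6.12 to 31.9 TPM (median 11.4) in glo2+/+ liver. Its log2 fold change was -1.12 (SE 0.35), and -0.70 without glo2+/+ replicate 1. For slco1d1 the log2 fold change was -0.47 (SE 0.15), with 5 of 6 glo2-/- libraries below all glo2+/+ libraries in CPM. In TPM fewer were, at 136 to 232 in glo2-/- and 160 to 271 in glo2+/+ liver. The lysosomal sterol carrier NPC2 (ENSDARG00000090912) was at -0.29 (SE 0.13).

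Of the regulators, NR1H3, the oxysterol receptor LXR alpha, had 3.32 to 6.11 TPM (median 3.95) in glo2-/- and 4.25 to 14.1 TPM (median 6.44) in glo2+/+ liver, a log2 fold change of -0.78 (SE 0.24). RXRA (ENSDARG00000057737), a copy of the shared partner of FXR and LXR, was at -0.79 (SE 0.24). Macrophages also express ABCA1 and NR1H3. Of 19 macrophage markers 10 were tested, and 10 of 10 were negative (median -0.45), against 52.4% of all genes. By edgeR 0 passed the adjusted threshold, and 3 were lower at an unadjusted p under 0.05, against 3.41% of all genes. Markers of 1 cell type in the same libraries are not independent of each other. The 19 markers summed to 48.7 to 182 TPM in glo2-/- and 104 to 232 TPM in glo2+/+ liver, highest in glo2+/+ replicate 1. The part of macrophages in the values of ABCA1 and NR1H3 was not tested.

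FGF19, the hormone that represses bile salt synthesis in mammals after release from the ileum, was detected in every liver library. Its counts were 39, 77, 332, 13, 200 and 446 in glo2-/- replicates 1 to 6. In glo2+/+ replicates 1 to 6 they were 26, 27, 14, 174, 42 and 51. The genotypes overlapped, although 3 glo2-/- libraries lay above all glo2+/+ libraries in CPM. The log2 fold change was 1.64 (SE 0.71), and 1.22 without glo2-/- replicate 6. The highest FGF19 and the highest NR0B2 were in the same library, glo2-/- replicate 6, which also had the highest NR1H4 (29.4 TPM). This library also had the most CYP7A1 of the glo2-/- libraries (22 counts). Next in FGF19, glo2-/- replicates 3 and 5 (332 and 200 counts) had 23 and 28 NR0B2 counts. Intestine markers other than FABP6 summed to 57.8 TPM in glo2-/- replicate 6. FABP2 alone held 36.6 TPM of that sum. The glo2-/- libraries, replicate 6 among them, had sums of 33.7 to 118 TPM, and the glo2+/+ libraries 20.2 to 63.9 TPM. The part of intestinal RNA in these values was not tested.

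**Figure D4:**
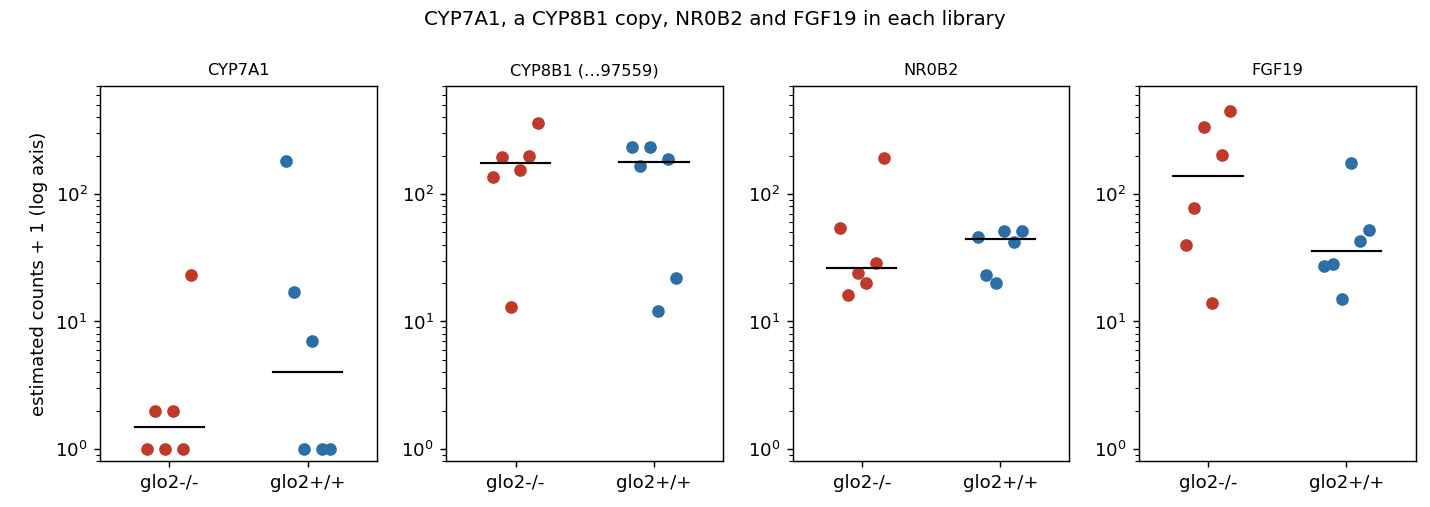
Estimated counts plus 1 (log axis) of CYP7A1, CYP8B1 (ENSDARG00000097559), NR0B2 and FGF19 in each library, glo2-/- left and glo2+/+ right; each point is a library and each line a genotype median. Single libraries or small sets stand apart: 180 CYP7A1 counts in 1 glo2+/+ library, 191 NR0B2 counts in 1 glo2-/- library, and 3 libraries with 11 to 21 counts of the CYP8B1 copy.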

How the data were processed

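RNA of whole liver was extracted with TRIzol and sequenced from BGISeq-500 libraries, per the labels' protocols. The submitters' processing notes name Trim Galore (0.6.4), kallisto (0.4.6) and the build GRCz11. Annotation release, strand setting and how transcripts became genes are not stated. The authors deposited estimated counts per gene (19.1% not whole, by more than 0.001) and TPM per gene.

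The 27 genes and all lists were chosen with earlier results of these data known. Of 32520 identifiers, 29201 had a name; 18 of 196 entries of the other lists had no match.

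The rounded estimated counts went into edgeR 4.0.16 (R 4.3.3; filterByExpr, TMM factors, quasi-likelihood F test, genotype as the only term; 14509 genes; Benjamini-Hochberg adjustment over all of them, threshold 0.05). This is two-sided, as are the permutation tests. Standard errors and 95% intervals came from the F statistic. CPM used TMM factors, and log2 CPM a prior count of 2. Copy shares were taken from TPM and were not tested. Correlations used 100000 permutations over 12 libraries and exact enumeration within a genotype; 1 of the 4 pairs was planned.

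Alternatives were DESeq2 size factors, no filter, a filter of 1 CPM in 6 libraries, DESeq2 1.42.0, limma 3.58.1 on log2 TPM with a pseudocount of 1 or 0.1, a block for the replicate number, an exocrine pancreas covariate, and leaving out each library. Every one of the 27 genes is named; of 3 further lists, the 3 genes with the smallest p; FABP6, FABP2, cyp46a1.4 and SRD5A2 were named after their values were seen. No 2 libraries agreed within sampling noise (lowest chi-square per degree of freedom 33.6 over 66 pairs). No sequence table was used.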

Additional observations from a re-analysis of the deposited data

Results flagged for a closer look

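Sets of 6 values of 1 genotype were searched for a library far from the others. Of 92 sets, 9 held one, where a nominal rate of 1 in 20 gives about 5. Genes measured in the same libraries are not independent, and some flagged values came from few counts. The comparison is therefore no test of an excess.

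For CYP7A1, glo2-/- replicate 6 had 1.06 CPM (others 0 to 0.0626) and glo2+/+ replicate 1 had 10.12 CPM (others 0 to 0.994). For klb, glo2+/+ replicate 4 had 0.203 CPM, from 4 counts, with all others at 0.

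In the CYP8B1 family, the main copy CYP8B1 (ENSDARG00000053068) had a log2 CPM of 6.79 in glo2+/+ replicate 3 (others 7.52 to 7.85). CYP8B1 (ENSDARG00000097556) had 0.77 in the same library (others 1.95 to 2.52), and 0.92 in glo2-/- replicate 6 (others 2.08 to 2.77). CYP8B1 (ENSDARG00000097559) had -0.46 in glo2-/- replicate 3 (others 3.02 to 4.11).

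AMACR had a log2 CPM of 2.38 in glo2-/- replicate 5 (others 3.03 to 3.35). The carrier slco1d1 had 9.18 in glo2-/- replicate 6 (others 8.79 to 8.94).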

How the results depend on the processing

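No bile salt gene was called under any of the 8 alternative fits or with any 1 of the 12 libraries left out; the lowest adjusted p over all of these was 0.589. Of the 22 tested genes, 10 kept the sign of their log2 fold change throughout. On log2(TPM + 1) and log2(TPM + 0.1) the sign reversed for CYP8B1 (ENSDARG00000053068) (0.015 and 0.015), CYP27A1 (ENSDARG00000055159) (0.0091 and 0.010), AMACR (0.044 and 0.049), slc27a2b (0.12 and 0.13) and ABCG8 (0.035 and 0.037). With the pancreas covariate slc27a2b was at 0.019. With 1 library left out, log2 fold changes that changed sign ranged from -0.19 to 0.065 for CYP8B1 (ENSDARG00000053068), -0.057 to 0.28 for CYP8B1 (ENSDARG00000097556), -0.10 to 0.42 for CYP8B1 (ENSDARG00000097559), -0.19 to 0.042 for CYP27A1 (ENSDARG00000055159), -0.29 to 0.023 for CYP27A1 (ENSDARG00000069186), -0.11 to 0.091 for AMACR, -0.23 to 0.23 for slc27a2b, -1.06 to 0.32 for abcb11a, -0.081 to 0.12 for ABCB4, -0.18 to 0.072 for slc51a, -0.42 to 0.64 for NR0B2 and -0.14 to 0.045 for ABCG8. The cause was not tested.

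The number of bile salt genes at an unadjusted p under 0.05 was 1 with all libraries, 2 without a filter (HSD3B7 and CYP7A1), 0 and 0 in the TPM fits, and 0 to 2 with 1 library left out. It was 0 without glo2-/- replicate 3 or 4, and 2 (HSD3B7 and NR1H4) without glo2-/- replicate 6. Without glo2+/+ replicate 2 it was 1, cyp27a1.1 in place of HSD3B7. Over all genes edgeR called 1, DESeq2 34, and edgeR 1 to 3 with 1 library left out (3 without glo2-/- replicate 6 and 2 without glo2+/+ replicate 6). Unadjusted calls over all 14509 genes were 358 higher and 495 lower with edgeR, and 474 and 204 on log2(TPM + 1). Without a filter they were 591 and 910 of 25478 genes. They were 512 and 631 of 14677 genes without glo2-/- replicate 6. Without glo2-/- replicate 3 they were 282 and 403 of 14733 genes, and without replicate 4 294 and 436 of 14767. The cause was not tested.

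Deviations of same-numbered libraries of the genotypes had correlations between -0.28 and 0.20 over 6 pairs. Of the 6 glo2-/- libraries, 2 correlated best with their own number. Whether the numbers pair the libraries was not tested. With the replicate number as a block, 0 bile salt genes and 1 gene in all were called, 0 bile salt genes had an unadjusted p under 0.05, slc27a2b was at 0.034 and NR0B2 at -0.041. Depth limits SLC10A1, klb, nr0b2b and cyp46a1.1, with at most 15 counts in any library; CYP7A1 varied from 0 to 180 counts at about equal depth.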

Other observations

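FABP6, the bile acid binding protein of the mammalian ileum, was examined after its values had been seen. It had 0, 0, 16, 12, 86 and 4 counts in glo2-/- replicates 1 to 6. In glo2+/+ replicates 1 to 6 it had 0, 2, 0, 0, 0 and 1 counts. In glo2-/- replicate 5, with 86 counts (16.2 TPM), FABP2, an intestinal fatty acid binding protein, stood at 50.2 TPM, while glo2-/- replicate 1 had more FABP2 (105 TPM) and no FABP6 count. glo2-/- replicate 5 was also highest in cholesterol synthesis genes, which summed to 7136 TPM there, against 463 to 3436 TPM in the other libraries. Exocrine pancreas markers summed to 7756 TPM in glo2-/- replicate 1 and 5089 TPM in glo2-/- replicate 5, above all other libraries. Of the other intestine markers, VIL1 had at most 0.302 TPM and apoa4a was at 0 in 10 libraries, while NPC1L1 reached 16.2 TPM. The part of intestinal or pancreatic RNA in FABP6 and FABP2 was not tested.

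SRD5A2 (ENSDARG00000043587), a steroid 5-alpha-reductase copy, varied from 29.0 to 125 TPM in glo2-/- and from 23.5 to 113 TPM in glo2+/+ liver.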
